A study of Mus musculus with 10 samples.

Results

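The genes described here are 42 genes of hepatic stellate cells and of the extracellular matrix, chosen by name and matched by symbol to the Ensembl mouse identifiers of the count files. All 42 were among the 55401 genes counted. Of these genes, 39 passed a filter of at least 1 CPM, the count relative to library depth, in at least 5 libraries, as did 12234 genes in all, and Lox, Timp1 and Tagln did not. No cutoff on measured values entered the rule, but the genes were chosen with earlier results of these data known. Liver mRNA of 5 wild-type mice (WT) and 5 mice labelled THRB-KO was sequenced from strand-specific libraries, 1 for each mouse. Per the labels, THRB-KO mice lack Thrb, which encodes thyroid hormone receptor beta, in the liver only, and the WT mice were their littermates. The dataset list of the study gives a cross of Thrb-loxP mice with an Afp-Cre line, in which the alpha-fetoprotein promoter drives the recombinase in the hepatocyte lineage. Stellate cells, fibroblasts and smooth muscle cells are not of that lineage. The strain is written C57Bl6/J in the sample titles and C56Bl6/J in the strain field. All mice were housed on a 12-h light cycle with standard chow and no treatment was given. The age, sex and time of sampling of these mice are not given in the sources used here, nor is any batch.

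Stellate cells lie between the hepatocytes and the sinusoidal endothelium, store vitamin A as retinyl esters and are the main source of matrix in the injured liver. When they turn into myofibroblasts they make alpha-smooth muscle actin, fibrillar collagens and inhibitors of the enzymes that degrade matrix, a change that TGF-beta and PDGF drive. Portal fibroblasts and the smooth muscle cells of hepatic vessels make many of the same products, and hepatocytes themselves secrete some matrix proteins, plasma fibronectin among them. In these bulk libraries, fewer cells of a type and less RNA per cell cannot be told apart.

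Total counts were between 26477195 and 28590704 per library, so that 3 counts corresponded to 0.105 to 0.113 CPM. The 42 genes took between 0.336% and 0.490% of the counts of a library. Thrb itself was lower in the THRB-KO libraries, at 26.7 ± 1.93 normalized CPM (SD, n = 5) against 33.3 ± 0.643 (SD, n = 5), and no THRB-KO mouse reached a WT mouse (log2 fold change −0.32, edgeR adjusted p = 0.036, and 0.30 without WT mice 2 and 5). Whether the reads that remain cover the targeted exons cannot be seen from a count per gene. The labelled tissue was checked with 8 hepatocyte markers, whose summed level was 88952 to 131395 normalized CPM in WT and 106477 to 118675 in THRB-KO mice. Of these 8, edgeR called 0, while 1 had an unadjusted p below 0.05, and DESeq2 and limma-voom called 1 each. Genes of the stellate cell group were present but low. Scaled to library size and exon length (RPKM), the WT mean was 1.01 for Lrat, which esterifies vitamin A, 0.956 for Reln, the secreted glycoprotein reelin, and 0.5002 for Des, the intermediate filament protein desmin. Genes of the acute phase, which hepatocytes express in inflammation, also moved with the genotype: 13 of the 18 tested were lower in THRB-KO mice at an adjusted p below 0.15 with edgeR, and 2 were without WT mice 2 and 5. Their summed level ran from 37192 to 86754 normalized CPM in WT mice and from 24838 to 41177 in THRB-KO mice. Their part in the results that follow was not tested.

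A pair of WT libraries stood apart in these genes. WT mouse 2 held the highest WT value in 21 of the 39 genes (53.8%), against 17.5% of all genes tested, and WT mouse 5 held the lowest in 23 of 39 (59.0%), against 21.3%. Relative to the median of the other WT mice, the median deviation over the 39 genes was 0.27 on the log2 scale in mouse 2 and −0.35 in mouse 5. In the other mice of both genotypes it was between −0.06 and 0.07. WT mouse 2 also had the highest sum of acute-phase genes. Calls are therefore also given without both mice, a fit in which far fewer genes of the whole table passed.

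In THRB-KO livers, 6 of the 39 genes tested rose and 0 fell at an adjusted p below 0.15, the threshold of the study (quasi-likelihood F-test of edgeR, with p-values adjusted by Benjamini-Hochberg over all genes tested). The 6 were Acta2, Des, Lamb1, Timp3, Ecm1 and Bgn, which encode proteins of the contractile apparatus, the cytoskeleton, the basement membrane and the matrix between cells. They are 15.4% of the members tested. Over all genes tested, 4.08% passed this threshold in either direction and 1.51% passed it as higher. At an adjusted p below 0.05, 1 member passed, Acta2 (2.56%), against 1.35% of all genes. Of the members, 12 had an unadjusted p below 0.05 (30.8%), against 13.6% of all genes, and 11 of those were higher (28.2%), against 6.15%. The 1 that was lower was Fn1, which edgeR did not call and which DESeq2 and limma-voom called.

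The fitted log2 fold change was above 0 in 32 members and below 0 in 7 (82.1% above, against 50.1% of all genes). Its median was 0.28 over the 39 members and 0.00054 over all genes tested. In 3 members, Acta2, Des and Lamb1, each THRB-KO mouse was above each WT mouse (7.69%), against 3.64% of all genes with no overlap in either direction and 1.38% with all THRB-KO mice higher. Without WT mice 2 and 5, an alternative chosen after seeing the data, only Acta2 of the 39 members was past 0.15, while 88 of the 12067 genes tested passed in that fit. The median over the members was then 0.31, with 34 fitted higher. With no filter on low counts, which let all 42 genes be tested, 6 were past 0.15 and 34 were fitted higher. In that fit, 641 of all 27817 genes were past 0.15 (2.30%).

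**Figure D1:**
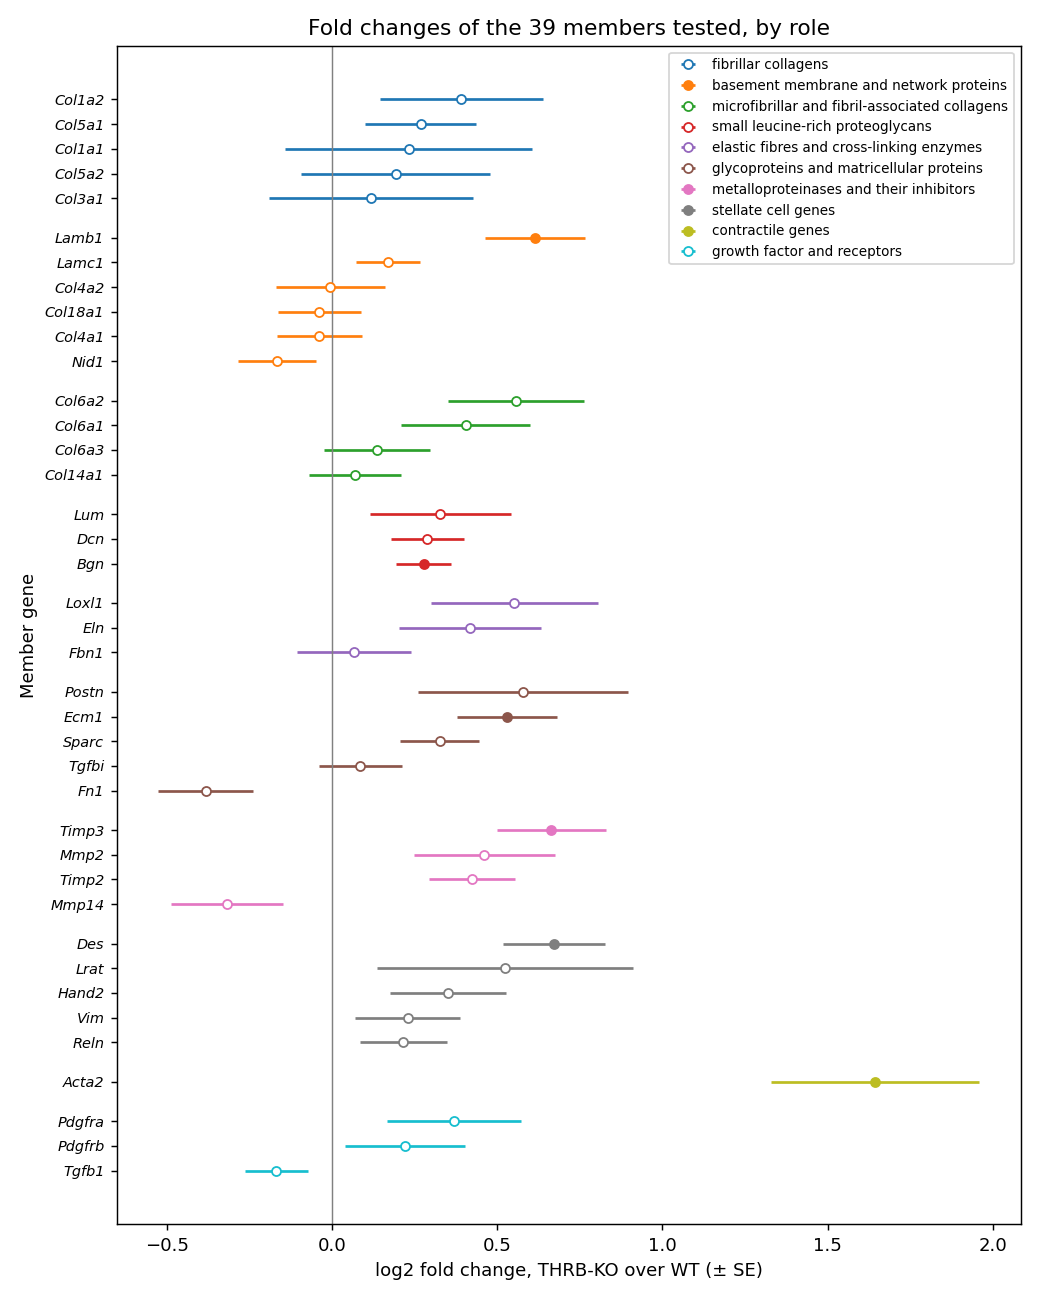
Log2 fold changes, THRB-KO over WT, of the 39 members tested (x axis, points, with bars of 1 standard error), grouped and coloured by role (y axis). Filled points are the 6 members past an adjusted p of 0.15, of which Acta2 lies farthest to the right at 1.64, and the 7 points left of 0 include Fn1 and Mmp14.

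Acta2 encodes alpha-smooth muscle actin, the actin of smooth muscle and of myofibroblasts. The gene spans 34241090 to 34255590 on the minus strand of chromosome 19 (GRCm38) and shares no exon bases with other genes. Normalized CPM were 1.55, 2.27, 1.04, 2.46 and 0.674 in WT mice 1 to 5 and 4.90, 4.91, 3.22, 7.02 and 4.95 in THRB-KO mice 1 to 5. All THRB-KO mice were above all WT mice. The mean rose from 1.599 ± 0.770 to 5.0007 ± 1.35 (SD, n = 5 each), or by 1.64 on the log2 scale (standard error 0.32, edgeR adjusted p = 0.026). These values rest on 18 to 65 counts in WT and 94 to 212 in THRB-KO libraries. The adjusted p was between 2.5e-05 and 0.068 over the 19 alternatives, and 0.089 without WT mice 2 and 5. The coding sequences of the actin genes are nearly identical and reads that mapped to several places were not counted, so the level of Acta2 is uncertain. The other actins that all cells make, Actb and Actg1, were at −0.07 and −0.03 (standard errors 0.13 and 0.12).

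The promoters of 29 of the 42 genes, from 250 bases before to 50 bases after the transcription start, were found by symbol in the RefSeq table for GRCm38.p6, and the first listed was used where a gene had several. They were searched for the CArG box, the binding motif of serum response factor at many contractile genes, which is CC, then 6 bases of A or T, then GG, and which reads the same on both strands. With at most 1 of the 6 middle bases being C or G, 7 of the 29 promoters held a match (24.1%), against 9.998% of 27025 promoters in the table. They were those of Acta2, Col1a2, Col6a3, Lamb1, Lrat, Mmp14 and Timp3. With no such mismatch, 0 of the 29 did, against 1.57% of the table. AGGTCA, the core hexamer at which thyroid hormone receptors bind, occurred on either strand in 1 of the 29, that of Postn (3.45%), against 16.0%. A match is a description of the letters only. Shown 5′ to 3′ on the strand of the gene are the promoters of Acta2 and Timp3, the 2 called genes with a pair of matches, and that of Des, which also rose and held none. Capitals mark the CArG matches, which in Acta2 begin at −84 and −34, and in Timp3 at −47 and 19, relative to the start. These starts come from another annotation than the gene spans, and that of Acta2 lies within the span given above. The windows are chr19:34255324-34255623 on the minus strand, chr10:86300162-86300461 on the plus strand and chr1:75360042-75360341 on the plus strand.
Acta2: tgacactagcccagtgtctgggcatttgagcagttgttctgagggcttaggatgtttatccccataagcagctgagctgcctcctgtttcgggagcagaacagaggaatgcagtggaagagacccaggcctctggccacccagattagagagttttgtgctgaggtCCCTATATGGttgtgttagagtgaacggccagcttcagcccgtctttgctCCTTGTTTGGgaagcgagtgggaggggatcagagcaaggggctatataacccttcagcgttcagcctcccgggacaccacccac
Timp3: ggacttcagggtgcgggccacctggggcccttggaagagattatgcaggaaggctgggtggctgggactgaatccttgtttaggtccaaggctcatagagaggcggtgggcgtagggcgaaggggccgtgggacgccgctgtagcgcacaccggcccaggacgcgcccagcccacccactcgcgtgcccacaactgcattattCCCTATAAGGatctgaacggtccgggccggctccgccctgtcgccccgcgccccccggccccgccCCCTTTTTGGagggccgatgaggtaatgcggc
Des: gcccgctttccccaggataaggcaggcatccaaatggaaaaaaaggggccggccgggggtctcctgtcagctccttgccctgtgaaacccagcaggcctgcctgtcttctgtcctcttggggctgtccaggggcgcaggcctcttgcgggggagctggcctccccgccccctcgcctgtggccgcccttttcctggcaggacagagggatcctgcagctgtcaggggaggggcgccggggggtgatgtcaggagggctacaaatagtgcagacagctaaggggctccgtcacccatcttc

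Smooth muscle markers were set beside Acta2, because vessel walls express it too. Of 8 such genes, 3 were tested. Myh11, the myosin heavy chain of smooth muscle, rose from 1.17 ± 0.531 to 2.93 ± 0.474 normalized CPM (SD, n = 5 each), a log2 fold change of 1.32 (edgeR adjusted p = 0.031, and 0.089 without WT mice 2 and 5), with all THRB-KO mice above all WT mice. Smtn, which encodes smoothelin, was at 0.41 (adjusted p = 0.22 with edgeR), and Mylk, myosin light chain kinase, at −0.28 (adjusted p = 0.20 with edgeR). The genotypes did not overlap in either. The other 5 failed the filter. Among these, Cnn1, which encodes calponin, was between 0.0357 and 0.210 normalized CPM in WT and between 0.283 and 0.795 in THRB-KO mice. Actg2, another smooth muscle actin, was between 0 and 0.210 in WT and between 0.377 and 0.637 in THRB-KO mice. Lmod1 and Synpo2 had means of 0.198 and 0.249 in WT and of 0.454 and 0.570 in THRB-KO mice, with overlapping genotypes, and Myocd had counts in 1 mouse only. Mylk dominates the summed level of the list, which was 71.7 to 83.2 in WT and 55.1 to 72.3 in THRB-KO mice. Without Mylk, a choice made after seeing the values, it was 3.14 to 5.52 and 7.65 to 9.34. The part of vessel smooth muscle in the rise of Acta2 was not tested.

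**Figure D2:**
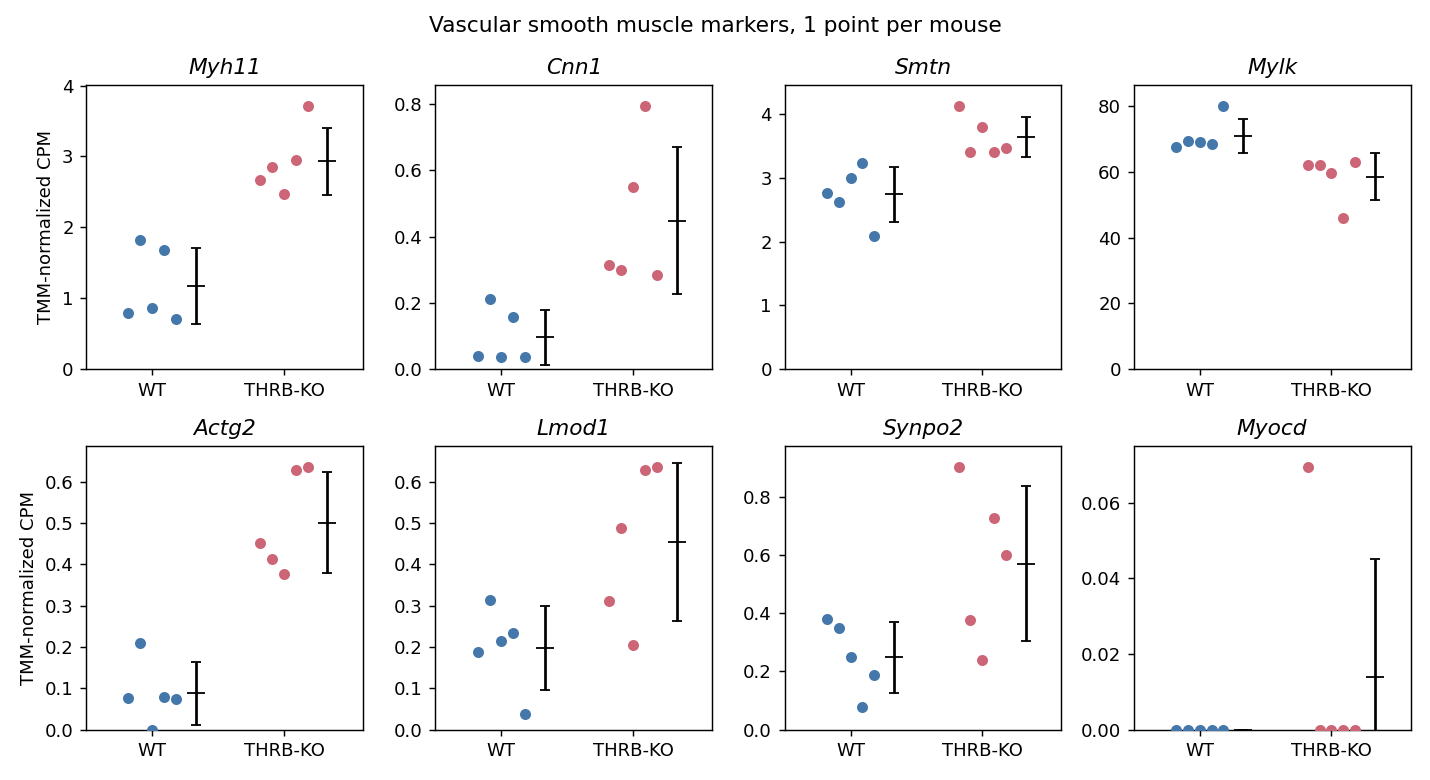
Normalized CPM (y axis) of 8 smooth muscle markers in each WT (blue) and THRB-KO (red) mouse (x axis), with the mean ± SD (n = 5) in black. In Myh11, Cnn1, Smtn and Actg2 all THRB-KO points lie above all WT points, and in Mylk all lie below them.

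Tagln, which encodes transgelin (SM22) and is the second contractile gene of the list, could not be read. It had 1 to 7 counts in each library, and at most 0.262 normalized CPM. Of its merged exons, 62.4% (1241 bp) overlap Gm48529 on the opposite strand and a further 108 bp overlap Pcsk7. Reads that overlapped more than 1 gene were not counted, and counting did not use the strand. Gm48529 itself had 12 to 31 counts.

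Among the 5 members grouped here as stellate cell genes, 1 rose, Des, and all 5 had a fitted log2 fold change above 0. Which cells account for the rise of Des, vessel smooth muscle among them, was not tested. Des had normalized CPM of 2.08, 2.06, 1.79, 2.11 and 1.35 in WT mice 1 to 5, and of 3.13, 2.89, 2.81, 2.85 and 3.29 in THRB-KO mice 1 to 5. The groups did not overlap. The log2 fold change was 0.67 (standard error 0.15, edgeR adjusted p = 0.057), with adjusted p between 0.0046 and 0.16 over the alternatives and 0.32 without WT mice 2 and 5. Of the exons of Des, 5.86% overlap Gm15179. Lrat varied most between mice, from 2.35 to 8.18 normalized CPM in WT and from 4.60 to 13.4 in THRB-KO mice. Its log2 fold change of 0.52 (standard error 0.39, edgeR adjusted p = 0.61) was within that spread. Reln (0.22), Vim (0.23), which encodes the intermediate filament vimentin, and Hand2 (0.35), a transcription factor of stellate cells, did not pass either. Hand2 shares 19.6% of its exon bases with Hand2os1.

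A further 21 stellate cell markers that are no members were examined. Of the 20 tested, 19 had a fitted log2 fold change above 0, with a median of 0.39, where 50.1% of all genes tested were above 0. At an unadjusted p below 0.05, 11 were higher and 1 lower, where 6.15% of all genes were higher. At an adjusted p below 0.15, edgeR called 2 of the 20, 1 in each direction. Prelp, a leucine-rich matrix proteoglycan, rose at an adjusted p below 0.15, from 25.7 ± 2.56 to 32.2 ± 2.78 normalized CPM (SD, n = 5 each), a log2 fold change of 0.33 (edgeR adjusted p = 0.095, and 0.49 without WT mice 2 and 5). The summed level was 704 to 940 normalized CPM in WT and 782 to 1220 in THRB-KO mice. Without Plin2, a lipid droplet protein that is also made by hepatocytes, it was 463 to 581 and 443 to 560. Most of that was Cxcl12, with means of 351 in WT and 356 in THRB-KO mice, so this sum says little about the other markers.

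**Figure D3:**
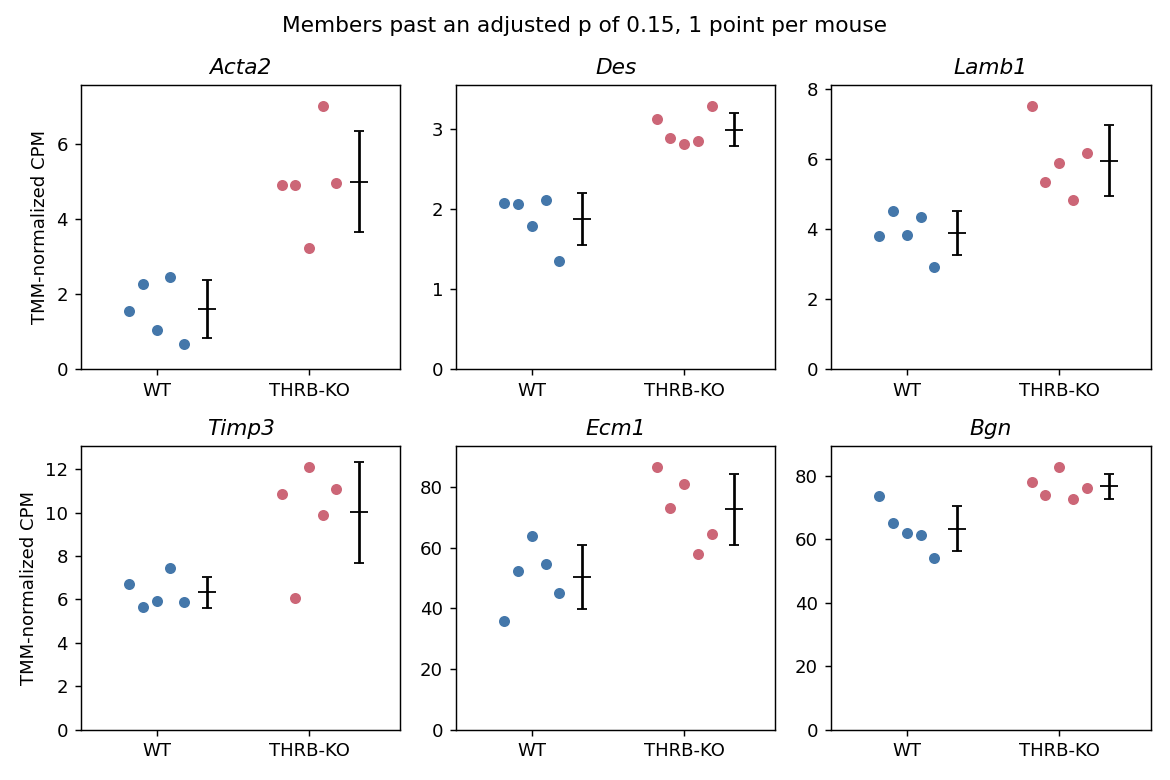
Normalized CPM (y axis, from 0) in each WT (blue) and THRB-KO (red) mouse (x axis) for the 6 members past an adjusted p of 0.15, with the mean ± SD (n = 5) in black. The genotypes are apart in Acta2, Des and Lamb1 and overlap in Timp3, Ecm1 and Bgn.

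The receptors and the growth factor through which stellate cells are activated did not pass the threshold. Of the 3, edgeR called 0, 0 had an unadjusted p below 0.05, and DESeq2 and limma-voom called 0. Pdgfrb, a receptor for PDGF on stellate cells and pericytes, had normalized CPM of 5.60, 8.67, 6.18, 4.88 and 4.38 in WT and of 9.10, 6.37, 6.62, 6.36 and 6.22 in THRB-KO mice. Except for THRB-KO mouse 1, THRB-KO values lay within the WT range, and the log2 fold change was 0.22 (standard error 0.18, edgeR adjusted p = 0.65). Pdgfra, the other PDGF receptor, was at 0.37 (standard error 0.20). Tgfb1, the ligand best known for inducing matrix genes, was at −0.17 (standard error 0.10, edgeR adjusted p = 0.48), with means of 7.29 ± 0.449 and 6.49 ± 0.506 normalized CPM (SD, n = 5 each).

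Other genes of these pathways gave no call with edgeR. Of 24 TGF-beta pathway genes, 18 were tested and 0 were past 0.15 with edgeR. Of the 18, 5 had an unadjusted p below 0.05, all higher, where 6.15% of all genes tested were higher at that level. DESeq2 called 3 of them and limma-voom 2, where 7.23% and 7.19% of all genes passed. The median log2 fold change of the 18 was 0.06. Of the 4 PDGF ligands, all tested, and the 13 matrix receptors tested, which were integrins, Ddr1, Ddr2, Dag1 and Cd44, edgeR, DESeq2 and limma-voom called 0, and 0 had an unadjusted p below 0.05. Their medians were 0.03 and −0.09.

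Fibrillar collagens, the proteins that make scar tissue rigid, were not detectably different at this number of mice. Of the 5 chains, edgeR called 0, 0 had an unadjusted p below 0.05, and DESeq2 and limma-voom called 0, although all 5 were fitted above 0, with a median of 0.23. Col1a1, the first chain of type I collagen, had normalized CPM of 6.66, 14.4, 4.90, 7.11 and 4.38 in WT and of 7.57, 5.85, 5.70, 15.4 and 9.55 in THRB-KO mice. The highest mouse of each genotype, WT mouse 2 and THRB-KO mouse 4, had more than any other mouse. The log2 fold change was 0.23 (standard error 0.37, edgeR adjusted p = 0.85), 0.51 without WT mice 2 and 5, and −0.07 without THRB-KO mouse 4.

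Col1a2, the second chain, followed the same mice, with 6.85, 14.2, 8.19, 8.36 and 5.88 normalized CPM in WT and 10.04, 10.1, 8.34, 17.0 and 11.5 in THRB-KO mice. The difference was 0.39 on the log2 scale (standard error 0.25, edgeR adjusted p = 0.54). Col3a1, the chain of type III collagen, was highest in WT mouse 2 at 27.4, among WT values that otherwise ran from 8.53 to 13.8, and was between 11.7 and 22.4 in THRB-KO mice. Its log2 fold change of 0.12 (standard error 0.31, edgeR adjusted p = 0.92) became −0.02 without WT mouse 5 and −0.04 without THRB-KO mouse 4. Col5a1 and Col5a2, which set the diameter of the fibrils, were at 0.27 and 0.19.

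**Figure D4:**
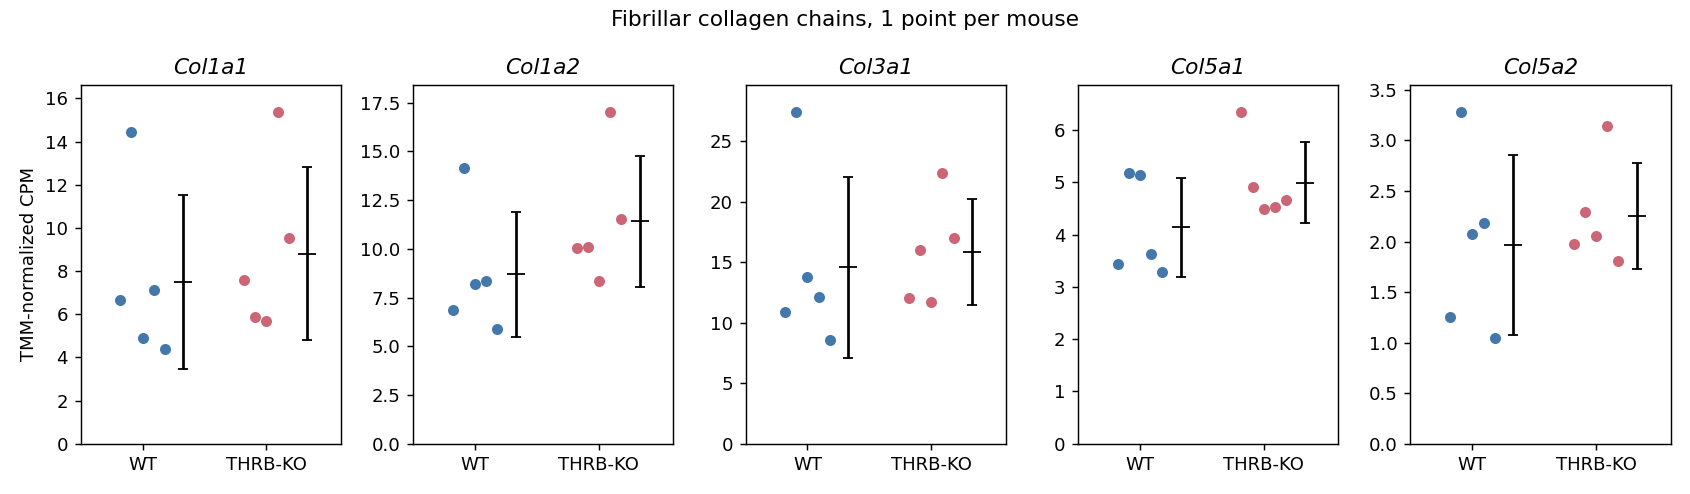
Normalized CPM (y axis, from 0) of the 5 fibrillar collagen chains in each WT (blue) and THRB-KO (red) mouse (x axis), with the mean ± SD (n = 5) in black. The genotypes overlap in all 5 panels, and in Col1a1, Col1a2 and Col3a1 1 mouse of each genotype lies above the others.

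Basement membrane and network proteins differed among themselves. Lamb1, the beta-1 chain of laminin, was the only one of the 6 past 0.15. Its normalized CPM were 3.78, 4.51, 3.82, 4.34 and 2.92 in WT and 7.503, 5.32, 5.87, 4.83 and 6.15 in THRB-KO mice. The lowest THRB-KO mouse was above the highest WT mouse, and the log2 fold change was 0.61 (standard error 0.15, edgeR adjusted p = 0.074). Over the alternatives the adjusted p was between 0.0082 and 0.18, and 0.33 without WT mice 2 and 5. Lamc1, the gamma-1 chain with which it assembles, was at 0.17 (standard error 0.097).

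The type IV collagen chains lay at 0 within their errors. Col4a1 had 31.5 ± 5.44 normalized CPM in WT and 30.6 ± 4.51 in THRB-KO mice (SD, n = 5 each), a log2 fold change of −0.04 (standard error 0.13, edgeR adjusted p = 0.94). Its sign turned in 4 fits that left out mice. Col4a2, which lies head to head with it, was at −0.0046, Nid1, the laminin-binding nidogen, at −0.17, and Col18a1 at −0.04 (standard error 0.13). Col18a1, the precursor of endostatin that hepatocytes also make, was the second most abundant member per length, at a mean of 183 RPKM in WT.

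A list of other basement membrane and matrix genes gave 1 call in each direction among the 22 of 33 that were tested. Lamb2, the beta-2 chain of laminin, rose from 4.88 ± 0.444 to 7.08 ± 1.26 normalized CPM (SD, n = 5 each), a log2 fold change of 0.54 (edgeR adjusted p = 0.079, and 0.53 without WT mice 2 and 5). Col15a1, a collagen of basement membrane zones related to Col18a1, fell by 0.85 on the log2 scale (edgeR adjusted p = 0.082, and 0.40 without WT mice 2 and 5), from 20.9 ± 3.15 to 11.6 ± 3.68 (SD, n = 5 each). In both the genotypes did not overlap. The median of the 22 was 0.21, with 8 higher and 2 lower at an unadjusted p below 0.05, against 13.6% of all genes in either direction.

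Among the microfibrillar and fibril-associated collagens, edgeR called 0 of 4, 1 had an unadjusted p below 0.05, DESeq2 called 1 and limma-voom 0. That gene was Col6a2, with 3.18, 4.41, 2.32, 3.59 and 2.32 normalized CPM in WT and 4.69, 4.46, 3.74, 6.39 and 3.996 in THRB-KO mice. Only WT mouse 2 lay within the THRB-KO range. On the log2 scale the difference was 0.56 (standard error 0.21, edgeR adjusted p = 0.26). Col6a1 was at 0.40 (standard error 0.19). Col6a3, whose chain completes the type VI collagen trimer, was at 0.14 (standard error 0.16, edgeR adjusted p = 0.77) and Col14a1, a fibril-associated collagen, at 0.07.

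The small leucine-rich proteoglycans bind collagen fibrils and growth factors, and 1 of the 3 rose. Bgn, which encodes biglycan, had 73.8, 65.1, 61.9, 61.3 and 54.2 normalized CPM in WT and 77.9, 74.0, 82.9, 72.6 and 76.1 in THRB-KO mice. WT mouse 1 overlapped the THRB-KO range. The log2 fold change was 0.28 (standard error 0.083, edgeR adjusted p = 0.14), the smallest of the 6 called. It was past 0.15 in 8 of the 19 alternatives (adjusted p from 0.049 to 0.32), and at 0.62 without WT mice 2 and 5. Dcn, which encodes decorin, went from 47.6 ± 5.78 to 58.2 ± 8.01 (SD, n = 5 each), a log2 fold change of 0.29 (edgeR adjusted p = 0.27), and Lum, lumican, was at 0.33.

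Of the elastic fibre genes and cross-linking enzymes, edgeR called 0 of the 3 tested, 1 had an unadjusted p below 0.05, and DESeq2 and limma-voom called 0. Loxl1, a lysyl oxidase that cross-links elastin, was that gene, at 1.05 ± 0.313 in WT and 1.54 ± 0.418 normalized CPM in THRB-KO mice (SD, n = 5 each), a log2 fold change of 0.55 (edgeR adjusted p = 0.37). Eln, elastin itself, was at 0.42 (standard error 0.22) and Fbn1, the microfibril protein fibrillin, at 0.07 (standard error 0.17, edgeR adjusted p = 0.92). Fbn1 shares 20.1% of its exon bases with Gm9913. Lox, which cross-links collagen, reached at most 0.313 normalized CPM, from 1 to 9 counts per library. Among 20 enzymes and chaperones that process collagen, 16 were tested and 1 rose, Serpinh1, the collagen chaperone HSP47. It went from 7.13 ± 0.891 to 10.9 ± 2.76 normalized CPM (SD, n = 5 each), a log2 fold change of 0.61 (edgeR adjusted p = 0.090, and 0.49 without WT mice 2 and 5), with overlapping genotypes.

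Glycoproteins and matricellular proteins moved in both directions. Ecm1, a secreted glycoprotein that holds latent TGF-beta in its inactive state in the liver, was one of those that rose, with 35.8, 52.2, 63.8, 54.7 and 45.02 normalized CPM in WT and 86.7, 73.1, 81.1, 57.9 and 64.5 in THRB-KO mice. WT mouse 3 lay above THRB-KO mouse 4 and the other mice were apart. Ecm1 was higher by 0.53 on the log2 scale (standard error 0.15, edgeR adjusted p = 0.12). It was past 0.15 in 12 of the 19 alternatives (adjusted p from 0.027 to 0.28), and at 0.54 without WT mice 2 and 5.

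Fn1, which encodes fibronectin, was the most abundant member per length at 221 RPKM in WT and 170 in THRB-KO mice. Its normalized CPM were 2541, 2665, 2192, 2574 and 2934 in WT and 2683, 1773, 1827, 1589.9 and 2031 in THRB-KO mice. All but 1 THRB-KO mouse lay below all WT mice, and THRB-KO mouse 1 was above all WT mice except mouse 5. On the log2 scale Fn1 was at −0.38 (standard error 0.14, edgeR adjusted p = 0.27). It was past 0.15 in 3 of the 19 alternatives (adjusted p from 0.058 to 0.49), which were DESeq2, limma-voom and the fit without THRB-KO mouse 1. Fn1 and Col18a1 together made 81.3% to 90.1% of the counts of all members, so a sum over the members reads these 2 genes.

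Sparc, a matricellular protein that binds collagen, had 43.7 ± 6.91 normalized CPM in WT and 54.8 ± 7.42 in THRB-KO mice (SD, n = 5 each), a log2 fold change of 0.33 (edgeR adjusted p = 0.26). Postn, periostin, was at 0.58 with a standard error of 0.32, and Tgfbi, a matrix protein induced by TGF-beta, at 0.09.

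Among the metalloproteinases and their inhibitors, 1 of the 4 tested rose. Timp3, a matrix-bound inhibitor, had 6.70, 5.66, 5.93, 7.42 and 5.88 normalized CPM in WT and 10.8, 6.07, 12.1, 9.90 and 11.1 in THRB-KO mice. All THRB-KO mice but mouse 2 were above all WT mice. The log2 fold change was 0.66 (standard error 0.17, edgeR adjusted p = 0.074), with adjusted p from 0.0079 to 0.19 over the alternatives and 0.49 without WT mice 2 and 5. Of its exon bases, 21.3% (1733 bp) lie opposite Syn3, which had 13 to 28 counts per library, and reads over both genes were not counted.

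Timp2, another inhibitor, was just outside the threshold, with 11.6, 10.8, 10.4, 10.003 and 7.67 normalized CPM in WT and 14.3, 10.8, 12.5, 16.3 and 13.8 in THRB-KO mice. Only THRB-KO mouse 2 lay within the WT range, and the log2 fold change was 0.42 (standard error 0.13, edgeR adjusted p = 0.153). It passed in 7 of the 19 alternatives (adjusted p from 0.066 to 0.31). Mmp2, the gelatinase of stellate cells, was at 0.46 (standard error 0.21, edgeR adjusted p = 0.37), and Mmp14, which activates it at the cell surface, at −0.32 (standard error 0.17). Timp1, the inhibitor best known from fibrotic liver, reached at most 0.347 normalized CPM, from 3 to 10 counts per library. Of 15 other metalloproteinase genes, 5 were tested and 1 rose, Reck, a membrane-bound inhibitor, from 4.96 ± 1.03 to 8.18 ± 2.17 normalized CPM (SD, n = 5 each), a log2 fold change of 0.72 (edgeR adjusted p = 0.094, and 0.36 without WT mice 2 and 5).

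Markers of other cell types were read beside these genes. Of 12 portal fibroblast and mesothelial markers, 6 were tested and 1 rose, Gsn, which encodes the actin-severing protein gelsolin, from 11.9 ± 2.27 to 28.0 ± 11.5 normalized CPM (SD, n = 5 each; log2 fold change 1.24, edgeR adjusted p = 0.064, and 0.36 without WT mice 2 and 5). The summed level of the list was 18.6 to 27.9 in WT and 28.0 to 62.7 in THRB-KO mice. Gsn made a large part of it, as the mean sums were 23.5 in WT and 42.7 in THRB-KO mice. Of 12 sinusoidal endothelial markers, edgeR called 0, 4 had an unadjusted p below 0.05, and DESeq2 and limma-voom called 2 each, with sums of 252 to 317 and 277 to 347. Of 9 Kupffer cell and leukocyte markers tested, all 9 were fitted lower, with a median log2 fold change of −0.63. Among them edgeR called 0, 5 had an unadjusted p below 0.05, all lower, and DESeq2 called 2 and limma-voom 0. Their sums were 105 to 371 and 118 to 225. Over all genes tested, 13.6% had an unadjusted p below 0.05 in either direction. Of 4 cholangiocyte markers tested, edgeR, DESeq2 and limma-voom called 0 and 2 were lower at an unadjusted p below 0.05, with sums of 44.5 to 67.7 and 43.8 to 51.3. The part of these cell types in the changes of the members was not tested.

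**Figure D5:**
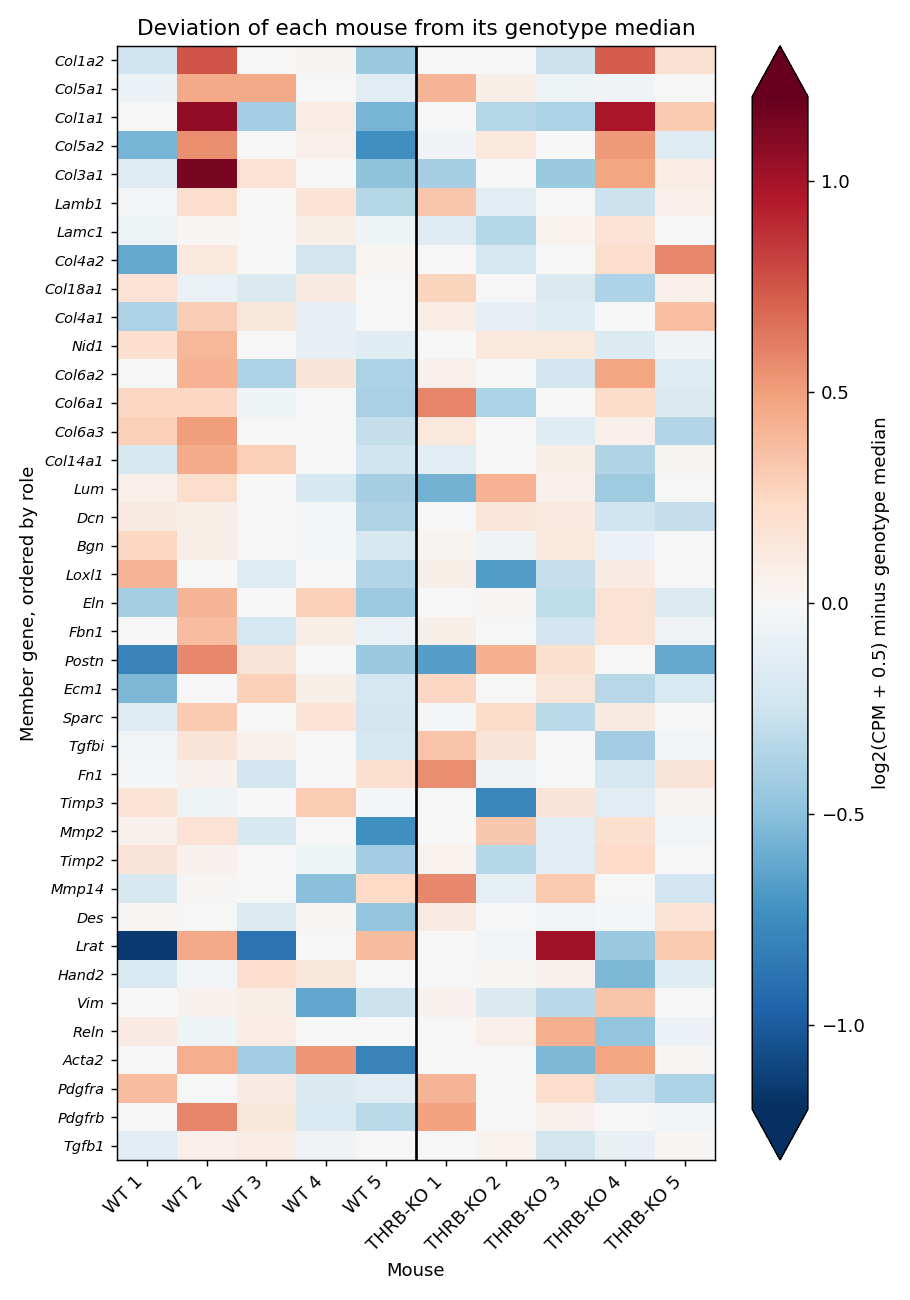
Deviation of each mouse (columns) from the median of its genotype in each of the 39 members tested (rows, ordered by role), as log2(normalized CPM + 0.5), with red above and blue below. WT mouse 2 is red and WT mouse 5 blue in most rows, and THRB-KO mouse 4 is red in 4 of the 5 fibrillar collagen rows.

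The spread between mice was of the same size as many of these differences. In the 5 fibrillar collagens, WT mouse 2 deviated by a median of 0.88 on the log2 scale from the other WT mice, WT mouse 5 by −0.57, and THRB-KO mouse 4 by 0.67 from the other THRB-KO mice. In the stellate cell genes the same mice deviated by 0.08, −0.05 and −0.50. Within the stellate cell genes, THRB-KO mouse 4 was the lowest THRB-KO mouse in Lrat, Hand2 and Reln and the highest in Vim.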

How the data were processed

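Per the labels, liver RNA was sequenced as stranded mRNA libraries. The authors mapped reads with HISAT2 2.2.1 on mm10 and counted them per Ensembl gene with HTSeq 0.9.1 in union mode, without strand, multi-mapped or ambiguous reads, and deposited raw counts, 1 file per mouse. Genes that overlap others or have near copies are thus undercounted. A deposited table of the authors' own comparison (fold changes, mean expression, F and p-values) was not used. Genotypes were taken from the labels, and each labelled sample was taken as 1 mouse, so p-values measure the spread between these samples.

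Here, counts were analysed in R 4.3.3 with edgeR 4.0.16. Genes reaching 1 CPM in 5 or more libraries were scaled by TMM and compared by its robust quasi-likelihood F-test with Benjamini-Hochberg adjustment. The standard error of a fold change was taken as its size over the root of F, and normalized CPM use TMM-scaled library sizes. The test was checked on simulated counts. Coordinates, overlaps and lengths come from GENCODE M21 on GRCm38, another release than the one counted on. Alternatives were DESeq2 1.42.0, limma-voom (limma 3.58.1), other normalizations and filters, no robust settings, the replicate number as a block, and leaving out each mouse.

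The members, gene lists and roles were chosen with earlier results of these data known. Named are members past an adjusted p of 0.15 or an unadjusted p of 0.05, 1 or 2 further members per role, members that failed the filter, and up to 4 called genes per other list. Other members and marker genes are named with single values as context. The values of 1 gene of a marker list are not reported here singly.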

Additional observations from a re-analysis of the deposited data

Results flagged for a closer look

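Within a genotype, 4 of the 78 groups of 5 mice examined, 39 genes in each genotype, held a mouse far from the others by Dixon's test at 95%. Chance flags about 1 in 20 groups, or 3.9 of 78. WT mouse 2 had 14.4 normalized CPM of Col1a1, where the other WT mice had 4.38 to 7.11, and 27.4 of Col3a1, where the others had 8.53 to 13.8. THRB-KO mouse 1 had 6.36 of Col5a1, where the other THRB-KO mice had 4.49 to 4.91, and 9.10 of Pdgfrb, where the others had 6.22 to 6.62. None of the 4 genes was past an adjusted p of 0.15 with edgeR.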

How the results depend on the processing

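The median log2 fold change of the members stayed above 0 in each alternative, and Acta2 stayed past 0.15 in each. The count of 6 members past 0.15, all higher, was 2 to 6 with 1 mouse left out, and it was 2 without WT mouse 5 or without THRB-KO mouse 3 and 3 without WT mouse 2. It was 1 without WT mice 2 and 5, an alternative chosen after seeing the data. All genes past 0.15 fell as well in these fits, from 499 to 239, 222, 227 and 88. With DESeq2 9 members passed and with limma-voom 8, and 1 of them was lower in each (Fn1). Of all genes tested, 7.23% passed with DESeq2 and 7.19% with limma-voom, against 4.08% with edgeR. Fn1 was also called as lower without THRB-KO mouse 1, so the count of lower members was 0 to 1 with 1 mouse left out. At 0.05, where 1 member passed, DESeq2 gave 6, limma-voom 3 and the fit with no filter 2. It was 0 without WT mice 2 and 5 and 0 to 2 with 1 mouse left out. Shares over all genes at 0.05 are not given for these fits. The members whose genotypes do not overlap numbered 3 to 7 with 1 mouse left out. Smaller groups overlap less easily, and the share over all genes is not given for these fits.

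Signs turned with a mouse left out in Fbn1 (−0.0062 to 0.191), Col4a1 (−0.129 to 0.0452), Col3a1 (−0.0399 to 0.483), Col1a1 (−0.0667 to 0.618), Col4a2 (−0.141 to 0.0772), Col18a1 (−0.123 to 0.0370), Col14a1 (−0.00082 to 0.182) and Tgfbi (−0.0060 to 0.181), and also in Fbn1 with limma-voom (−0.0036), in Col4a2 in fits with all mice (up to 0.0283), and in Col4a1 without WT mice 2 and 5 (0.0684). The cause was not tested.

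The labels number the mice 1 to 5 in each genotype, and deviations of same-numbered mice correlated between −0.20 and 0.0063. These values show no likeness of same-numbered mice, but cannot tell whether the mice were matched in a way that leaves none. With the replicate number as a block, 3 members were past 0.15, all higher (Acta2, Postn and Timp3), 2 of them shared with the fit without it. Members below about 1 CPM, Tagln, Timp1 and Lox among them, could not be compared at this depth.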

Other observations

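Chains that assemble into 1 trimer were followed across the 10 mice, as deviations from the genotype mean on the log2 scale, in 5 pairs chosen after the values had been seen (permutation tests, two-sided, with 100000 resamples). Col1a1 and Col1a2 deviated together (Pearson's r = 0.93, p = 0.0018, adjusted over the 5 pairs 0.0044; Spearman's rho = 0.89, p = 0.0012, adjusted 0.0062). Without the 2 mice farthest from the median of Col1a1, r was 0.65. Col4a1 and Col4a2, which share a promoter region, did so as well (r = 0.90, p = 0.00056, adjusted 0.0028; rho = 0.83, p = 0.0046, adjusted 0.011), and r was 0.76 without the 2 farthest mice. For Col6a1 and Col6a2 r was 0.54 (permutation p = 0.11, adjusted 0.16) and rho 0.65 (p = 0.048, adjusted 0.080), with r = 0.76 without the 2 farthest mice. For Col5a1 and Col5a2 r was 0.52 (permutation p = 0.13, adjusted 0.16) and rho 0.45 (p = 0.19, adjusted 0.24), with r = 0.48. The laminin chains Lamb1, which rose, and Lamc1 gave r = −0.06 (permutation p = 0.89, adjusted 0.89) and rho = 0.03 (p = 0.95, adjusted 0.95), with r = −0.00046. Pairs of chains from different trimers were not examined, so these correlations cannot tell partner chains from members that share the same outlying mice. WT mouse 2 was above the median of the other WT mice in 35 of the 39 members tested, and WT mouse 5 in 4.

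A pair of contractile genes outside the lists, named after their values had been seen, were also higher in THRB-KO mice. Tpm2, beta-tropomyosin, went from 1.28 ± 0.314 to 4.17 ± 1.54 normalized CPM (SD, n = 5 each), a log2 fold change of 1.70 (edgeR adjusted p = 0.0063). Myl9, a regulatory myosin light chain of smooth muscle, went from 1.44 ± 0.385 to 2.98 ± 0.767 (SD, n = 5 each), a log2 fold change of 1.04 (edgeR adjusted p = 0.046). The genotypes did not overlap in Tpm2 but did in Myl9. Neither gene is given without WT mice 2 and 5. The actins Acta1 and Actc1, also examined, failed the filter.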
